A study of Mus musculus with 26 samples.

Results

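The genes described here are 51 genes of mitosis and chromosome segregation, followed in mouse liver through 26 RNA-seq libraries. They were chosen by name, as genes that build, run or check the mitotic apparatus, and each of the 51 symbols was found once among the 47643 genes of the count table.

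Mitosis runs on a fixed order of events. Condensin packs the duplicated chromosomes, kinetochores form on centromeres and catch the microtubules of the spindle, and the spindle checkpoint holds the anaphase-promoting complex back until every kinetochore is attached. That complex, with its activator Cdc20, then marks securin (Pttg1) and cyclin B for destruction, separase cuts cohesin, and the midzone and contractile ring split the cell. Adult hepatocytes rarely divide, and many are polyploid. They re-enter the cycle together when liver tissue is lost.

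The libraries came from 5 experiments, each with its own control. TCPOBOP, an agonist of the xenobiotic receptor CAR, was given to wild type C57BL/6J mice aged 8 weeks (2 libraries, against 2 of corn oil vehicle). Sample titles place these livers at 36 h after injection and the source names at 6 h. Fxr-/- Shp-/- mice lack the bile acid receptor Fxr and its target, the repressor Shp. They were C57BL/6J, 12 weeks old, and were set against wild type mice of the same strain and age (3 and 3 libraries). Partial hepatectomy (PHx), the surgical removal of part of the liver, was done in C3H/HeN mice aged 8-10 weeks, whose livers were taken at 48 h and set against a 0 h sham group (3 and 3). The labels give neither the genotype of these mice nor how much liver was removed. Isolated hepatocytes came from wild type C57BL/6J mice aged 16 weeks, fed a 60% high fat diet or chow and fasted for 10 h (2 and 2). Cholic acid, a primary bile acid, was fed to C57BL/6J mice with floxed Fxr and Shp alleles (fl/fl Fxr fl/fl Shp), aged 10-12 weeks and fasted for 8-10 h, against chow (3 and 3). No Cre is named for any of these floxed mice. All samples but the hepatocytes were whole liver, and mice other than the fasted groups fed ad libitum. The labels do not say that the libraries of a group came from separate animals, so the tests measure the spread between these libraries, which may be technical.

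Reads counted to genes ranged from 13949059 to 70367874 per library. Levels are CPM, read counts divided by library size and scaled by TMM over all 26 libraries. Fold changes are edgeR log2 values. Where a standard error (SE) follows, it was derived from the quasi-likelihood F test, as the absolute change over the square root of F. These errors are approximate and may be too small for genes with few counts. A change was called at an adjusted p below 0.05, Benjamini-Hochberg over all genes tested in that comparison. In Fxr-/- Shp-/- livers the Shp transcript stood at 0.563, 1.10 and 1.59 CPM, against 13.3 to 26.8 CPM in wild type. The Fxr transcript stood at 52.9 to 61.5 CPM against 114 to 153 CPM. The labels do not say which exons were deleted, so the Fxr count is no check. Alb, the albumin transcript of hepatocytes, was at 29981 to 102816 CPM in every library. The library labelled corn oil 1 went against its label: the CAR target Cyp2b10 was at 3672 CPM there, near the 3420 and 2976 CPM of the TCPOBOP livers, and at 10.0 CPM in its partner labelled corn oil 2. The library labelled flox chow 3 also stood apart from its group, with S100a8 and S100a9, neutrophil genes, at 4.35 and 9.64 CPM against at most 0.0741 and 0.518 CPM in flox chow 1 and 2. Counts of the 51 genes called that rest on either library are given with and without it.

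Promoter sequence is shown first, because many mitotic genes share a short element, the cell cycle genes homology region (CHR), and a CCAAT box bound by NF-Y. The CHR is known as the landing site of the complexes that keep such genes silent in resting cells and turn them on in G2. Of the 51 genes, 43 had a promoter in the RefSeq table (build GRCm38.p6; 250 bases before to 50 after each start). Aurkb, Cdca2, Esco2, Incenp, Kif20a, Smc4, Spc24 and Tpx2 had none. CHR matches were searched as TTTGAA or TTCGAA and CCAAT boxes as CCAAT, on both strands. The 150 bases before the listed RefSeq start are printed 5′ to 3′ for 8 genes on which later results turn. Matches to either motif are in capitals. Cdc20, Prc1, Ube2c, Ncapg, Kif11 and Top2a rose steeply after hepatectomy, Bub3 rose least, and Pttg1 differed between control groups. Prc1 and Bub3 each have 2 listed starts, and the one with more matches is shown.
Cdc20, chr4:118437344-118437493, minus strand: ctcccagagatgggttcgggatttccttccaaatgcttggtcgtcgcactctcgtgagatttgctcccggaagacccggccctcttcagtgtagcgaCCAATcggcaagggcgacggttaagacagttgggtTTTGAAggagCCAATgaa
Prc1, chr7:80294326-80294475, plus strand: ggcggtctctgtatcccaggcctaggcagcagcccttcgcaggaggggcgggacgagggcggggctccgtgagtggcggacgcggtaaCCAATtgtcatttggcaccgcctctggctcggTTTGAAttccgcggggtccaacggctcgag
Ube2c, chr2:164769779-164769928, plus strand: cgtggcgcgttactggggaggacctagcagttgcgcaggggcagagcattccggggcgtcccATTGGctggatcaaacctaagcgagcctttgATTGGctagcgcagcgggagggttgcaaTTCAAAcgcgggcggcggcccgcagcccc
Ncapg, chr5:45669775-45669924, plus strand: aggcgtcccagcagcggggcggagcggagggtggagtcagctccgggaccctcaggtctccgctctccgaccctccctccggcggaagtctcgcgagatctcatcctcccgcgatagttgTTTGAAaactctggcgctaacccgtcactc
Kif11, chr19:37376232-37376381, plus strand: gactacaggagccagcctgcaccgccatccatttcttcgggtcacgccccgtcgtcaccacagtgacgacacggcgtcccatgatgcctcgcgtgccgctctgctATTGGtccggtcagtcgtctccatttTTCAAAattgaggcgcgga
Top2a, chr11:99024190-99024339, minus strand: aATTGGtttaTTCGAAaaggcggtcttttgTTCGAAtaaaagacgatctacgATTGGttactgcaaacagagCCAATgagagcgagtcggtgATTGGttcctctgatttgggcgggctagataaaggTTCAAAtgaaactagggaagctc
Bub3, chr7:131560220-131560369, plus strand: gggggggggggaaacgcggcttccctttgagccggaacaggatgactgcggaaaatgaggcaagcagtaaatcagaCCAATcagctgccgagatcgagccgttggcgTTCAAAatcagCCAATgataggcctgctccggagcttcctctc
Pttg1, chr11:43425982-43426131, minus strand: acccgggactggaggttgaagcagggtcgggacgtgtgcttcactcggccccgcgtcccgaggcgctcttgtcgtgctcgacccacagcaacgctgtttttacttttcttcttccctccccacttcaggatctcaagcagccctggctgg

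Bub3, the gene that moved least, carries a CHR match and 2 CCAAT boxes in these 150 bases, as Cdc20 and Ube2c do. The Pttg1 stretch has neither, but it lies inside the gene as annotated in GENCODE M21 (43420250 to 43426251, minus strand). Sequence before the annotated 5′ end of Pttg1 was not searched, so the lack of matches does not describe it. Across the full windows, 34 of the 43 genes (79.1%) held a CHR match, 30 (69.8%) held a CCAAT box and 28 (65.1%) held both. Among all 27025 genes in the table the shares were 21.7%, 41.1% and 8.61%. A CHR match within 50 bases of the start on either side was present in 30 of 43 (69.8%), against 6.12% of all genes. The 9 without a CHR match were Aunip, Birc5, Cenpe, Mad2l1, Ncaph, Nek2, Nuf2, Nusap1 and Pttg1, whose window lies inside the annotated gene. The windows of Cdca3, Cdca8, Kif2c and Kif4, counted among the 34 with a match, also lie inside their annotated genes. A match describes these letters in this window and is not a binding site. The anaphase-promoting complex list, 14 subunits and the coactivator Fzr1, which resting cells also use, held a CHR match in 2 of the 14 promoters listed.

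**Figure D1:**
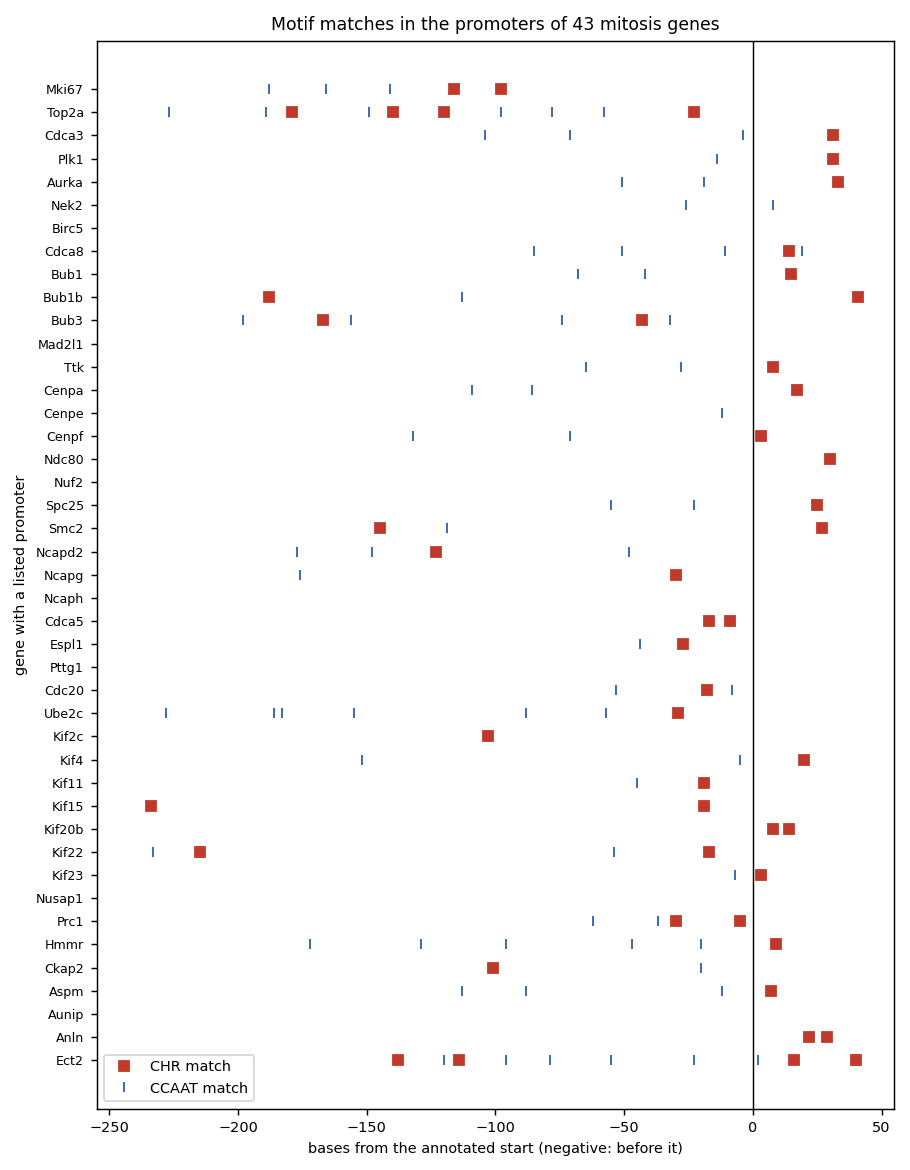
Position of CHR (red squares) and CCAAT (blue bars) matches in the promoters of the 43 genes with a listed promoter, in bases from the listed RefSeq start (x axis). CHR matches gather near the start, with 30 of 43 genes holding one within 50 bases of it.

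After partial hepatectomy every one of the 51 genes rose, from log2 0.79 for Bub3 to 8.28 for Ttk. In all genes tested, 16.4% rose. The median change of the 51 genes was a log2 of 5.29, against 0.01 for all 13753 genes, and 29 of the 51 rose by more than log2 5. In all 51 the lowest of the 3 PHx libraries lay above the highest sham library, as held for 24.2% of genes tested. All 51 passed the filter on low counts, 28 of them in every sham library and 23 only through the PHx libraries. Summed over the 51 genes, the level was 82.6 to 95.9 CPM in sham livers and 1192 to 1720 CPM after PHx. In bulk liver, more dividing cells and more of each transcript per dividing cell cannot be told apart.

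**Figure D2:**
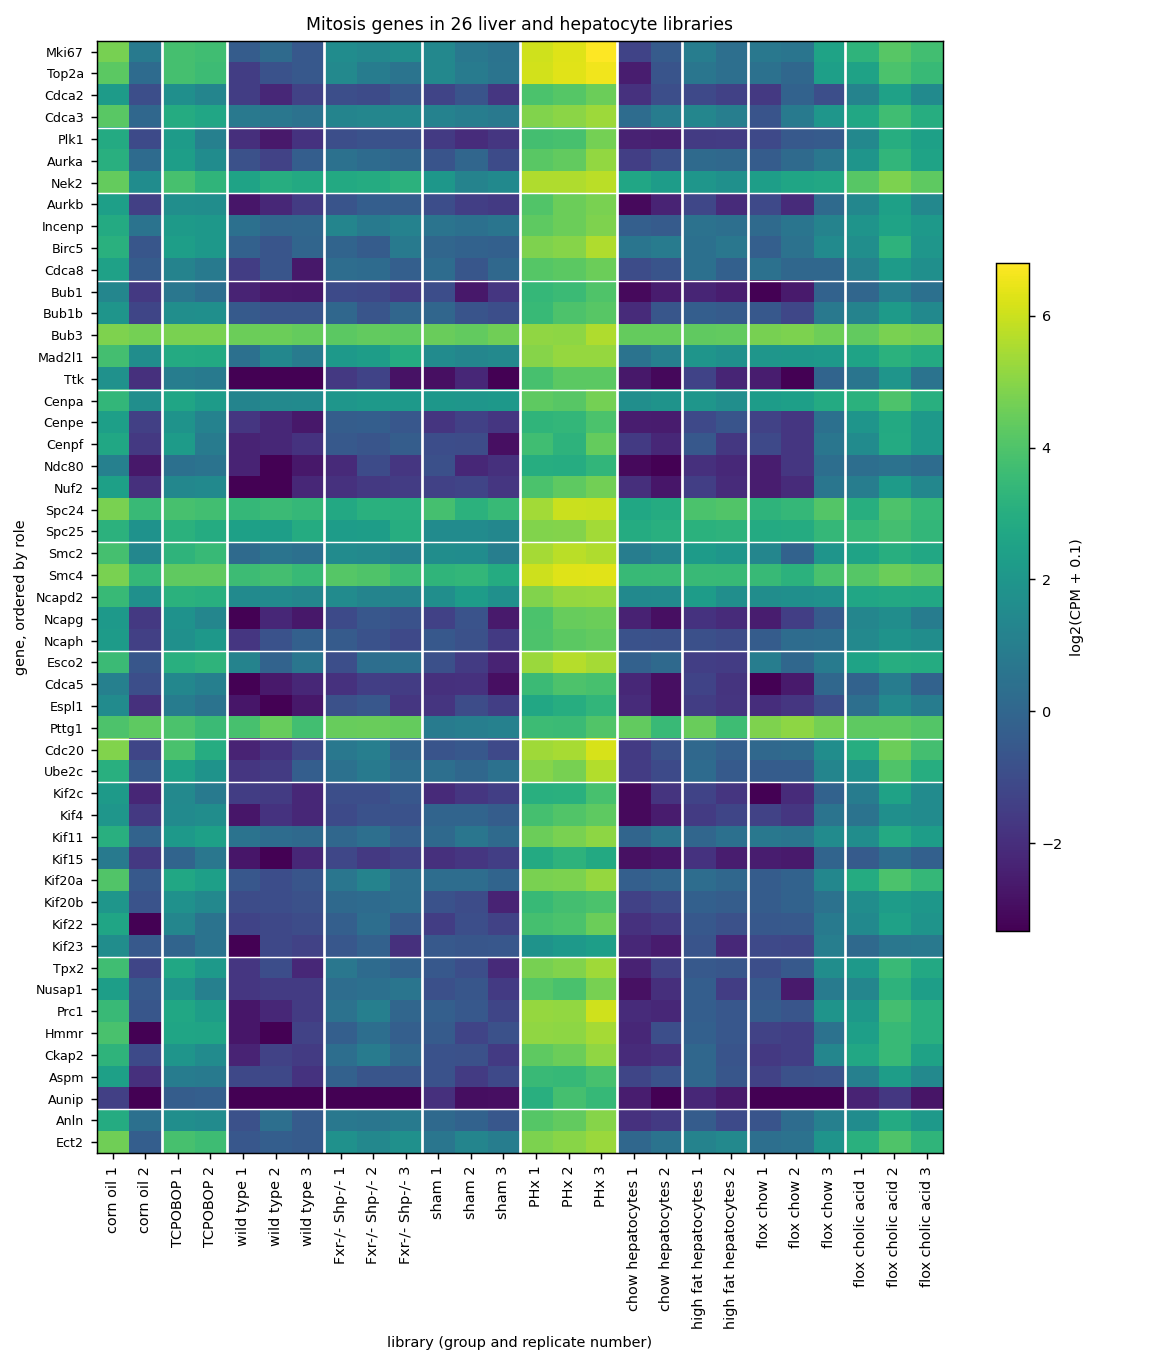
Level of each of the 51 genes (rows, ordered by role) in every library (columns, by group), as log2(CPM + 0.1). The 3 PHx columns are the brightest block, the libraries labelled corn oil 1 and flox chow 3 are brighter than the rest of their groups, and Bub3, Spc24 and Smc4 are visible in every column.

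Among the genes of chromosome structure, Mki67, the coat protein of mitotic chromosomes and the usual proliferation marker, stood at 2.55, 1.55 and 1.34 CPM in sham livers and at 66.4, 79.4 and 111 CPM after PHx. The groups were far apart (log2 fold change 5.56 ± 0.29 SE, edgeR adjusted p 9.4e-06). Top2a, the topoisomerase that untangles sister chromatids, went from 1.37 to 2.55 CPM to between 68.7 and 94.8 CPM (5.42 ± 0.22). Cdca2, a phosphatase anchor that helps chromosomes decondense, and Cdca3, a trigger of mitotic entry, rose by log2 5.70 and 4.17.

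The mitotic kinases and the chromosomal passenger complex rose together. Plk1, the kinase that drives mitotic entry and spindle building, was at 0.226, 0.146 and 0.200 CPM in sham livers and 13.4, 14.4 and 25.4 CPM after PHx (log2 6.52 ± 0.37). PHx 3 was higher than the other two. Aurka, the spindle pole kinase, rose by 5.33, and Nek2, the kinase that splits centrosomes, by 4.07. All 4 members of the passenger complex, which corrects faulty attachments, rose: its kinase Aurkb by 6.15 ± 0.28, Birc5 (survivin) by 5.44, Cdca8 (borealin) by 4.49 and the scaffold Incenp by 4.13.

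The spindle checkpoint list was the most uneven. Ttk, the kinase at the top of the checkpoint, had 1, 4 and 0 counts in the sham libraries and 506, 653 and 703 after PHx, and its log2 fold change of 8.28 ± 0.39 rests on those few sham counts. Bub1 and its relative Bub1b, kinase-like parts of the checkpoint complex, rose by 5.82 and 4.58, and Mad2l1, which binds and blocks Cdc20, by 3.74. Bub3, the adaptor that brings Bub1 and Bub1b to kinetochores, stood at 22.02, 20.5 and 24.5 CPM in sham livers and at 34.3, 34.0 and 47.5 CPM after PHx. Its rise of 0.79 ± 0.15 (edgeR adjusted p 0.0056) was the smallest of the 51, and the groups did not overlap.

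Centromere and kinetochore genes covered a wide range. Nuf2, Cenpe, Cenpf and Ndc80, proteins of the microtubule attachment face, rose by 6.16, 5.64, 5.60 and 5.10. Cenpa, the histone that marks centromeres, went from 3.97, 3.92 and 4.11 CPM to 19.4, 17.9 and 25.5 CPM (2.39 ± 0.16). Spc24 and Spc25, partners in the same NDC80 complex as Nuf2 and Ndc80, started higher and rose less. Spc24 went from 13.9, 9.06 and 11.3 CPM to 42.3, 62.7 and 62.2 CPM (2.29 ± 0.20), and Spc25 rose by 3.64. The 4 genes of this 1 complex thus changed by log2 2.29 to 6.16.

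Condensin split in a similar way. Ncapg and Ncaph, regulatory subunits of condensin I, rose by 6.07 and 5.40. The third subunit of that set, Ncapd2, rose by 3.21. Smc2 and Smc4, the ATPase arms shared by condensin I and II, rose by 4.20 and 3.02. Smc4 was at 9.74, 10.4 and 7.31 CPM in sham livers and 64.6, 78.5 and 80.5 CPM after PHx, without overlap. Exons of Ncapd2 and Ncapg overlap those of other annotated genes by 472 and 944 bases.

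In the cohesion list Esco2, the acetyltransferase that locks cohesin onto chromatin in S phase, went from 0.451, 0.234 and 0.1001 CPM to 38.8, 50.7 and 42.8 CPM (log2 7.37 ± 0.29). Cdca5 (sororin), which guards cohesin, rose by 6.75, and Espl1 (separase) by 4.78. Pttg1, the securin that restrains separase, rose from 1.77, 1.93 and 2.10 CPM to 12.0, 11.6 and 16.5 CPM (2.79 ± 0.19). Cdc20, the activator of the anaphase-promoting complex, was at 0.516, 0.584 and 0.367 CPM in sham livers and 40.7, 44.6 and 72.7 CPM after PHx (6.73 ± 0.31). Ube2c, the ubiquitin-conjugating enzyme of that complex, rose by 4.96 ± 0.28.

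All 8 kinesins rose, by log2 2.89 to 5.68. Kif11, the motor that pushes spindle poles apart, went from 0.999, 1.46 and 1.03 CPM to 23.1, 26.9 and 33.6 CPM (4.57 ± 0.21). Kif23, the motor of the central spindle, had the smallest rise (2.89 ± 0.22, from 0.613, 0.555 and 0.568 CPM to 3.56, 4.26 and 5.05 CPM). Kif20a, a cytokinesis motor, rose by 4.84, but 1271 of its 4338 exon bases lie opposite exons of Cdc23. The strand setting of the counting is not given here, so reads from that stretch may be left uncounted or assigned to the wrong gene.

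Spindle assembly genes had the highest list median, 6.29, of the lists with more than 2 genes. Prc1, which bundles midzone microtubules, went from 0.741, 0.584 and 0.334 CPM to 36.0, 35.4 and 65.9 CPM (6.36 ± 0.37), with 911 bases of its exons opposite Rccd1. Tpx2, the spindle activator of Aurka, rose by 6.37, Hmmr by 6.29, Ckap2 by 5.99, Nusap1 by 5.53 and Aspm by 5.09. Aunip, an Aurka-binding protein, was near 0 in sham livers (5, 1 and 1 counts) and had 288, 486 and 399 counts after PHx. The cytokinesis genes Anln, the scaffold of the contractile ring, and Ect2, the exchange factor that switches on RhoA there, rose by 4.84 and 4.12.

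**Figure D3:**
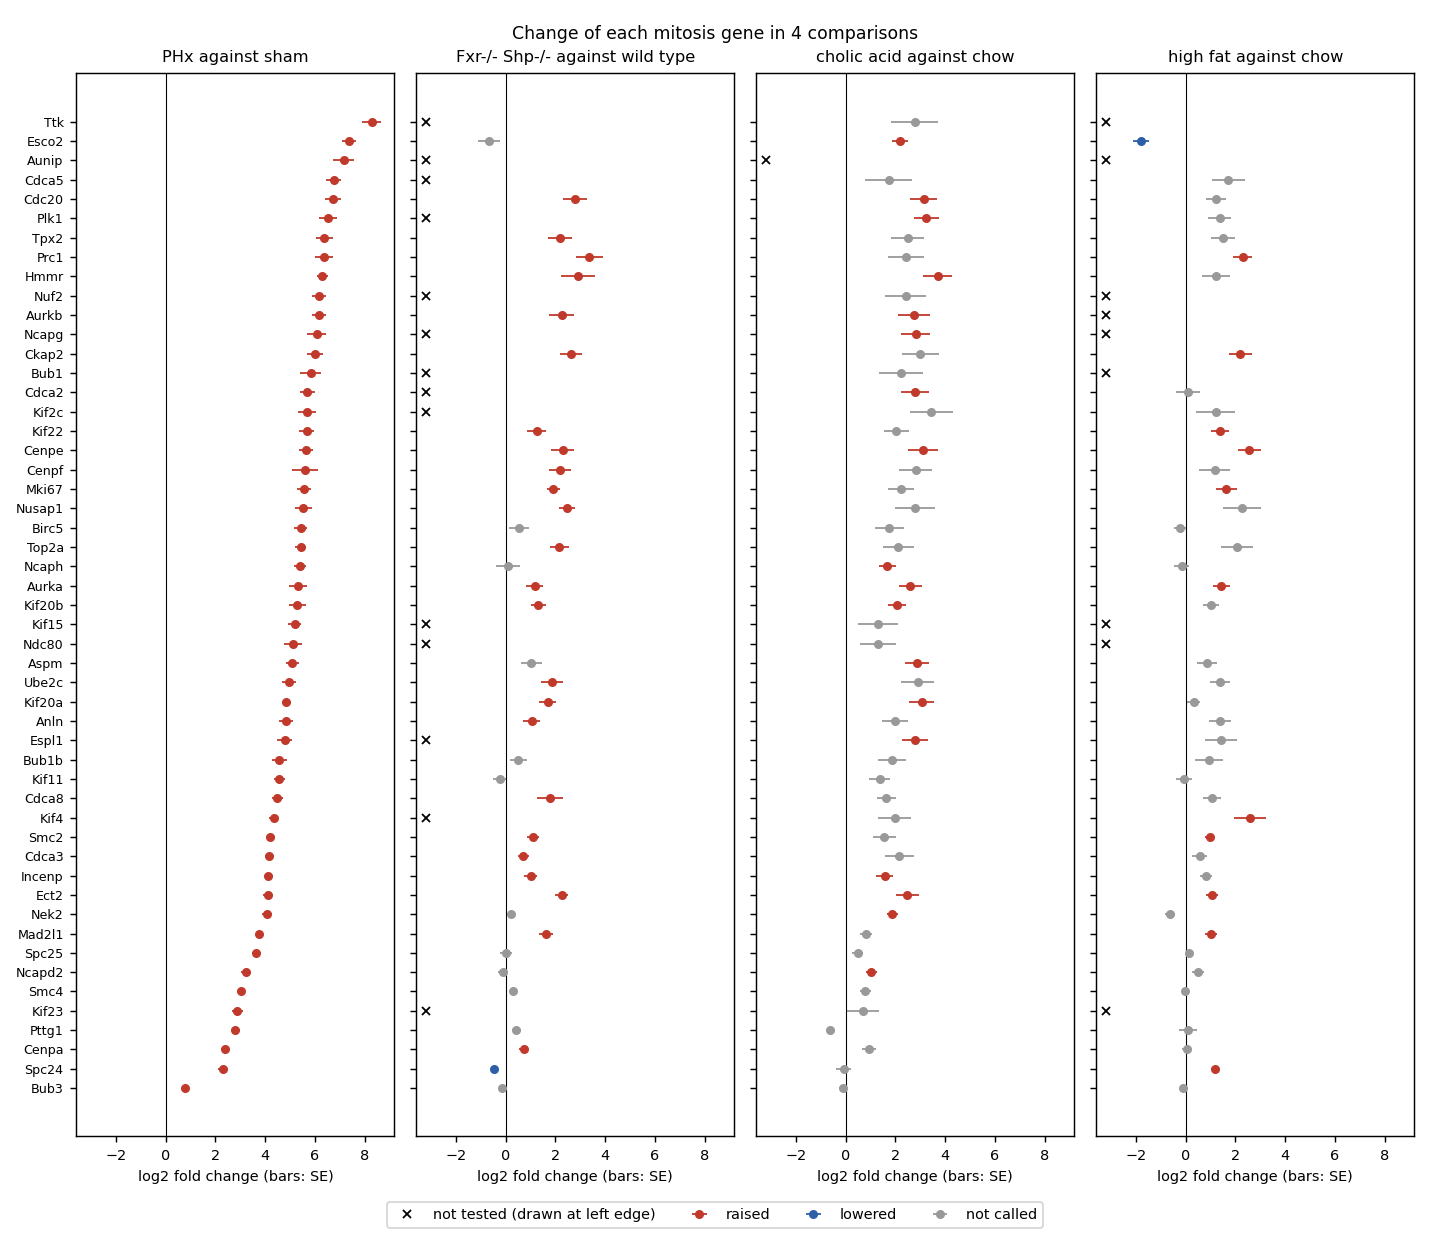
Log2 fold change of each gene (y axis, ordered by the change after hepatectomy) in 4 comparisons, with standard errors; red and blue mark genes called raised and lowered, grey not called, and crosses genes that were not tested for low counts. All 51 points are red after PHx, while Bub3, Spc24, Cenpa and Pttg1 sit at the bottom.

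Levels were also compared per kilobase of exon. The ratio of the 90th to the 10th percentile of mean CPM per kb was 20.6 in sham livers and 8.46 after PHx, and several genes at the low end in sham livers, such as Ttk, rest on a few counts. The median rose from 0.104 to 5.47 CPM per kb. In sham livers Spc24 (4.43), Bub3 (3.18) and Smc4 (1.76) led. After PHx the order was Cdc20 (28.2), Spc24 (21.7) and Smc4 (14.3). Sham and PHx levels share the same annotated lengths, which sum all exons of a gene and may exceed the transcript that liver makes.

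**Figure D4:**
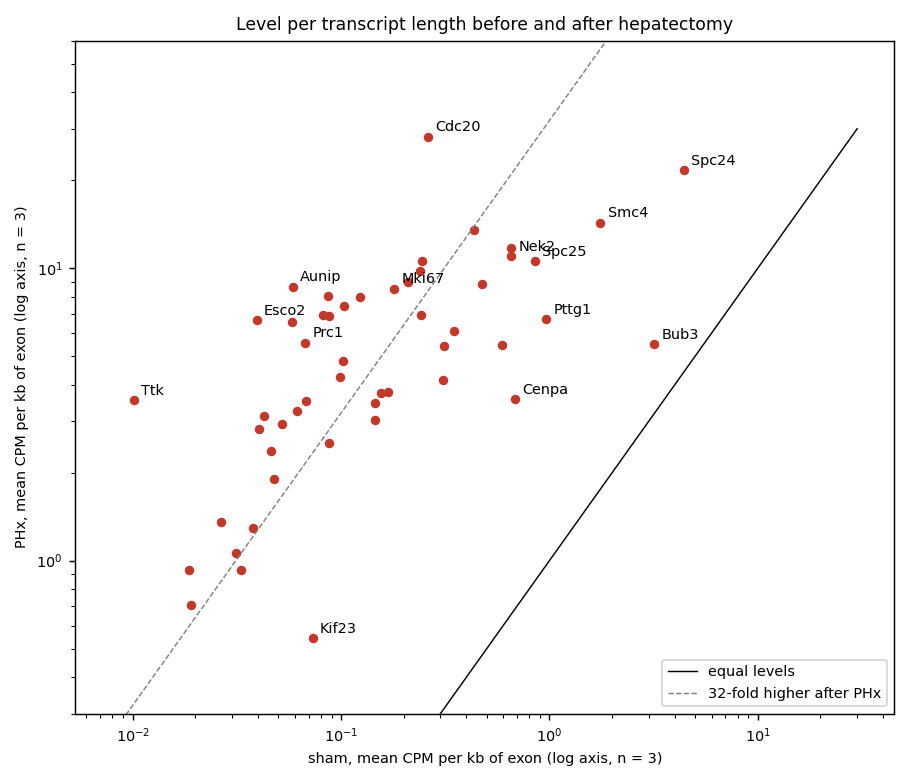
Mean CPM per kb of exon in sham (x, log axis) against PHx livers (y, log axis), 1 point per gene, n = 3 libraries each; the solid line marks equal levels. Every point lies above the line, Bub3 closest to it and Ttk farthest from it.

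The 3 PHx libraries were not alike. PHx 3 held the highest CPM for 45 of the 51 genes and PHx 2 for the other 6. The ratio of PHx 3 to the mean of PHx 1 and 2 was highest for Cenpf (1.91), Aurka (1.85), Prc1 (1.85) and Plk1 (1.83). It was lowest for Kif15 (0.861), Esco2 (0.956), Aunip (0.968) and Smc2 (0.979), with a median of 1.34. These genes were picked from the ends of the ranking after their values were seen. With any 1 sham or PHx library left out, all 51 genes were still called raised.

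Related genes outside the 51 divided by kind. Of 63 other genes of the mitotic machinery, 60 rose after PHx and 0 fell, with a median of log2 4.46. The largest rises were those of Pbk, a mitotic kinase (6.87 ± 0.31), Dlgap5, a spindle protein (6.52), and Ska1, a kinetochore protein (6.39). The 15 genes of the anaphase-promoting complex list had a median of 0.31, and 9 rose, led by Anapc15 (1.32), Cdc23 (0.91, opposite Kif20a) and Anapc10 (0.54). Of 10 genes of cohesin, its loader and its release factors, 6 rose and 1 fell, with Rad21 at 0.87, Smc3 at 0.75 and Smc1a at 0.67. The gene that fell, named after its value was seen, was Stag2 (-0.25).

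Among 20 regulators of G2 and mitosis, including the MuvB and DREAM subunits that act on CHR elements, 15 rose. Ccnb1, cyclin B1, rose by 6.01 ± 0.32, Pkmyt1, a Cdk1 inhibitory kinase, by 5.55 and Ccna2, cyclin A2, by 5.54. The 1 that fell, named after its value was seen, was Rbl2 (p130), the pocket protein of resting cells. It was at 47.3, 51.1 and 48.7 CPM in sham livers and 32.8, 27.0 and 28.1 CPM after PHx (-0.74 ± 0.10, edgeR adjusted p 0.0011).

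Few markers of other liver cells were called. Of 12 leukocyte and Kupffer cell markers 7 were tested and 0 called by edgeR. Their sum was 108 to 190 CPM in sham and 119 to 159 CPM in PHx livers. Of 5 endothelial markers only Lyve1 was called (-1.09), of 6 stellate markers Col1a1 (0.95), of 5 bile duct markers Krt19 (0.88) and of 5 erythroid markers Klf1 (-1.69). Of 6 hepatocyte markers 3 fell, by at most 0.37. Their part in the rise was not tested.

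In Fxr-/- Shp-/- livers many of these genes were raised, from very low levels. The libraries also differed in the share of reads not counted to genes. It was 47.6% to 48.6% in wild type and 32.1% to 33.6% in Fxr-/- Shp-/- libraries. This difference cannot be told apart from genotype, and its part in the calls was not tested. Of the 51, 37 passed the count filter, and 24 were raised and 1 lowered. Among all genes 21% were raised and 19.4% lowered. A single fit of all 26 libraries called 5 of the 51 raised, where 16.1% of all genes were, and 0 lowered. The median of the 37 tested was log2 1.16, against -0.01 for all genes. It comes from genes that passed the filter, 19 of them only through the Fxr-/- Shp-/- libraries. The median thus does not describe all 51, and the counts of raised and lowered genes are not compared with those shares. Summed over the 51, levels were 93.1 to 107 CPM in wild type and 130 to 136 CPM in Fxr-/- Shp-/- livers.

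Prc1, Hmmr and Cdc20 had the largest rises. Prc1 stood at 0.0516, 0.120 and 0.235 CPM in wild type and at 1.30, 1.99 and 0.899 CPM in Fxr-/- Shp-/- livers (log2 3.35 ± 0.54, edgeR adjusted p 0.0016). Hmmr rose by 2.90 ± 0.68, and Cdc20 went from 0.103, 0.181 and 0.353 CPM to 1.56, 1.90 and 0.899 CPM (2.78 ± 0.49). None of the 3 overlapped between groups, but the share of all genes without overlap is not given for this comparison. Tpx2 and Ube2c rose by 2.19 and 1.84, and Anln and Ect2 by 1.04 and 2.26.

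Mki67 was at 0.671, 1.02 and 0.588 CPM in wild type and 2.94, 2.56 and 2.98 CPM in Fxr-/- Shp-/- livers (1.91 ± 0.27). The knockout libraries were thus close to one another and above all wild type ones. Top2a rose by 2.15, Aurkb by 2.24, Cenpe by 2.28, Cenpa by 0.72 and Kif20a by 1.68. Several other genes were tested but not called: Bub3 (-0.16 ± 0.10), Bub1b (0.51 ± 0.35), Smc4 (0.30 ± 0.16), Pttg1 (0.43 ± 0.18) and Kif11 (-0.24 ± 0.29).

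Esco2, second after hepatectomy, was at 2.22, 0.843 and 1.47 CPM in wild type and 0.433, 1.15 and 1.23 CPM in Fxr-/- Shp-/- livers, with overlap (-0.68 ± 0.45, edgeR adjusted p 0.26). The 1 lowered gene was Spc24, at 10.53, 11.9 and 10.6 CPM in wild type and 6.75, 8.47 and 8.34 CPM in Fxr-/- Shp-/- livers (-0.47 ± 0.14, edgeR adjusted p 0.026). That call was lost when wild type 1, 2 or 3 or Fxr-/- Shp-/- 1 was left out (adjusted p 0.050 to 0.088). Plk1 and Ncapg were among the 14 genes not tested. Plk1 was at 0.0602 to 0.176 CPM and 0.433 to 0.491 CPM. Ttk had 0 counts in all 3 wild type libraries and 5, 7 and 1 counts in Fxr-/- Shp-/- livers, and Aunip had 0 counts in all 6. A count of 0 allows up to 3 counts, or 0.123 to 0.181 CPM in these 6 libraries.

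Outside the 51, 14 of the 63 other mitotic genes were raised and 5 lowered, with 37 tested. Gas2l3, a midbody protein, rose most (4.19 ± 0.27), from 0.516, 1.26 and 1.23 CPM to 14.6, 20.1 and 18.9 CPM. The 3 PHx libraries held 16.99, 15.96 and 16.0 CPM of it, against 2.93, 3.01 and 1.74 CPM in sham livers. Its rise was larger in the knockout than after PHx (difference of PHx minus knockout effect -1.54 ± 0.36 on the log2 scale, edgeR adjusted p 0.0061). Oip5, which helps load Cenpa, and Arhgap11a, a RhoA regulator, rose by 3.73 and 3.25. Of the G2 and mitosis regulators 7 of 20 were raised and 1 lowered, with Foxm1, a transcription factor of these genes, at 2.32, Ccnb1 at 2.24 and Pkmyt1 at 2.172. Of the anaphase-promoting complex list 3 of 15 (20%) were raised, close to the share of all genes, and 1 lowered (Anapc4 0.67, Anapc11 0.41, Anapc1 -0.38). Of the 10 cohesin genes 5 were lowered, with Pds5b at -0.64, Stag2 at -0.53 and Stag1 at -0.48.

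Marker lists of other cells moved in both directions in the same livers. The 6 stellate and fibroblast markers summed to 173 to 282 CPM in wild type and 347 to 425 CPM in Fxr-/- Shp-/- livers, with 5 raised. The 5 bile duct markers summed to 26.5 to 36.2 CPM and 54.5 to 128 CPM, with 4 raised. Of 12 leukocyte markers 9 were tested, and S100a8 (5.07) and Cd68 (1.54) were raised (22.2%, close to the share of all genes), with sums of 121 to 254 CPM and 184 to 367 CPM. Of 5 endothelial markers Lyve1 and Stab2 were raised. The erythroid markers Alas2 (-1.42) and Klf1 (-0.73) were lowered, 2 of the 4 tested, with sums of 111 to 149 CPM and 88.9 to 154 CPM. Of 6 hepatocyte markers 3 were lowered, Ass1 (-0.81), Hnf4a (-0.78) and Apoa1 (-0.43). The part of these cells in the rise of the mitotic genes was not tested.

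On cholic acid 18 of the 51 genes were called raised and 0 lowered. Of all genes tested, 2.27% were raised. Aunip alone was not tested, and 26 of the other 50 passed only through the cholic acid libraries, so counts and shares are not compared. The count rests on flox chow 3, where Mki67 was at 5.73 CPM against 1.56 and 1.42 CPM in flox chow 1 and 2. Without that library 43 genes were called raised (5.55% of all genes) and 1 lowered, Pttg1, named after its value was seen (-0.73). Without flox chow 1 or 2, 5 and 2 were. Leaving out cholic acid 2 or 3 gave 3 and 4. The shares of all genes are not given for these fits, so the counts do not show whether these genes or all calls moved. Flox chow 3 held the highest level of its group for 45 of the 51 genes, by a median factor of 3.03 over the mean of the other two (50 genes).

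Among the members that passed, Hmmr went from 0.296, 0.271 and 1.30 CPM on chow to 5.10, 11.05 and 8.20 CPM (log2 3.69 ± 0.59, edgeR adjusted p 0.014). Plk1 went from 0.370, 0.610 and 0.652 CPM to 2.57, 7.76 and 5.29 CPM (3.24 ± 0.50), and Cdc20 from 0.963, 1.02 and 3.04 CPM to 7.88, 22.8 and 13.5 CPM (3.13 ± 0.54). The groups did not overlap for these 3 genes, but the share of all genes without overlap is not given for this comparison. Aurkb (2.74), Cenpe (3.10), Ncapg (2.82), Kif20a (3.06) and Ect2 (2.48) also rose. Esco2 rose by 2.19 ± 0.32, from 1.85, 0.949 and 1.74 CPM to 5.75, 7.71 and 7.29 CPM. Without flox chow 3 the changes of Hmmr, Plk1, Cdc20 and Esco2 were 4.80, 3.38, 3.88 and 2.31, and all 4 were called.

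Several large differences did not pass. Kif2c, a microtubule-depolymerising kinesin, differed by log2 3.43 ± 0.86 (edgeR adjusted p 0.062). Mki67 was at 9.34, 18.1 and 13.1 CPM on cholic acid, above all chow libraries, with a difference of 2.22 ± 0.53 and an adjusted p of 0.053. Without flox chow 3 that difference was 3.17 (adjusted p 0.0041). The values for Top2a (2.11), Ube2c (2.89), Prc1 (2.41), Tpx2 (2.49), Anln (1.98), Bub1b (1.88), Kif11 (1.36), Smc4 (0.79) and Cenpa (0.93) were likewise above 0 but not called. At the low end were Pttg1 (-0.65 ± 0.17, edgeR adjusted p 0.066), Bub3 (-0.10 ± 0.17) and Spc24 (-0.09 ± 0.30).

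Cholic acid 2 held the highest level of its group for 49 of the 51 genes, by a median factor of 1.77 over the mean of the other 2 libraries. Of the 63 other mitotic genes 10 were raised, with Dlgap5 at 3.95, Iqgap3, a scaffold of the division furrow, at 3.75 and Sgo2a, a guard of centromeric cohesin, at 3.42. Ccnb1 (3.75), Foxm1 (2.85) and Ccnb2 (2.83) led the 4 raised regulators. Without flox chow 3, 26 of the 63 and 8 of the 20 regulators were raised. edgeR called none of the 15 anaphase-promoting complex or 10 cohesin genes, with or without that library. Of 12 leukocyte markers 9 were tested, with changes of -1.24 to 1.36. Csf1r was raised (1.36), and 5 markers were raised without flox chow 3. The 12 had sums of 82.8 to 202 CPM on chow and 168 to 269 CPM on cholic acid. Reln was raised among 6 stellate markers, with sums of 101 to 187 CPM and 167 to 271 CPM. Of 5 erythroid markers Alas2 was lowered (-1.69), with sums of 197 to 421 CPM on chow and 75.2 to 216 CPM on cholic acid. No endothelial, bile duct or hepatocyte marker was called with all 6 libraries. Their part in the result was not tested.

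In isolated hepatocytes on high fat diet 11 of the 51 genes were raised and 1 lowered, with 42 tested. Of all genes tested, 12.9% were raised and 11.1% lowered. Of the 42, 14 passed the filter only through the high fat libraries, so the counts are not compared with those shares. Levels were low throughout, with sums over the 51 genes of 91.9 to 93.1 CPM on chow and 110 to 128 CPM on high fat diet. Leaving out 1 library gave between 1 and 13 raised genes, the lowest without high fat hepatocytes 1, then 3 without chow hepatocytes 1 and 5 without high fat hepatocytes 2.

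Kif4, a chromosome-bound kinesin with 832 bases of exon that overlap Pdzd11, was at 0.0194 and 0.0692 CPM on chow and 0.240 and 0.337 CPM on high fat diet (log2 2.58 ± 0.63, edgeR adjusted p 0.036). Cenpe and Prc1 rose by 2.55 ± 0.46 and 2.28 ± 0.38. Mki67 was at 0.310 and 0.640 CPM on chow and 1.84 and 1.18 CPM on high fat diet (1.63 ± 0.41, adjusted p 0.040). None of these overlapped, which says little with 2 libraries per group. The share of all genes without overlap is not given for this comparison. Spc24, lowered in the knockout, was at 6.43 and 7.47 CPM on chow and 15.2 and 16.4 CPM on high fat diet (1.16 ± 0.13). Ect2 rose by 1.06.

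Esco2 fell, from 0.774 and 1.00 CPM on chow to 0.270 and 0.245 CPM on high fat diet (log2 -1.81 ± 0.32, edgeR adjusted p 0.017). That is 40 and 58 counts against 18 and 16. Without high fat hepatocytes 1 or 2 the adjusted p was 0.076 or 0.072. At the low end, not called, were also Nek2 (-0.64) and Birc5 (-0.24). The panel genes that did not pass spread from Bub3 (-0.10) and Kif11 (-0.08) through Smc4 (-0.02), Cenpa (0.04), Pttg1 (0.09) and Kif20a (0.33) to Bub1b (0.93), Cdc20 (1.23), Anln (1.36), Plk1 (1.36), Ube2c (1.37), Tpx2 (1.497) and Top2a (2.08). Aurkb and Ncapg were not tested.

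Beyond the 51, 49 of 63 mitotic genes were tested. Of these 7 were raised (14.3%, with 12.9% of all genes) and 1 lowered, Cenpl, a centromere protein named after its value was seen (-0.61). How many of the 49 passed the filter only through the high fat libraries is not given, so these shares are not compared either. Those raised included Psrc1, a spindle protein (3.53), and Cenpm, a centromere protein (2.35). Cep55, which recruits the abscission machinery, had 0 counts in both chow libraries and stood at 0.180 and 0.168 CPM on high fat diet. Ccnb1 (2.88), Cdc25b (2.15) and Rbl1 (1.31) were raised among 4 of the 19 regulators tested, and Lin37, a MuvB subunit named after its value was seen, was lowered (-0.66). Of the 10 cohesin genes 5 were lowered, led by Smc3 (-0.47), Stag2 (-0.45) and Nipbl (-0.45). Markers of non-hepatocyte cells were higher in the same libraries: all 5 endothelial markers were raised (sums 37.9 to 39.8 CPM on chow, 94.7 to 97.8 CPM on high fat diet), as were 5 of 6 stellate markers (9.15 to 14.9 CPM and 36.6 to 37.0 CPM) and 5 of 12 leukocyte markers (30.3 to 32.7 CPM and 52.4 to 57.7 CPM). Of 6 hepatocyte markers Hnf4a (-0.68) and Apoa1 (-0.66) were lowered. Of the 5 bile duct and 5 erythroid markers 0 were called, and Krt19 and Epcam had 0 counts in both chow libraries. Their part in these changes was not tested.

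The CAR experiment gave no direction for these genes. edgeR called 0 of the 51 in either direction, 0.0% of all genes were raised, and 0 of the 51 passed even an unadjusted p of 0.05. DESeq2 called 109 genes in all, and 0 of the 51. At an unadjusted p under 0.05 edgeR counted 751 of 12785 genes. The TCPOBOP livers had Mki67 at 14.1 and 12.7 CPM, while the libraries labelled corn oil 1 and corn oil 2 had 26.1 and 1.67 CPM. Cdc20 showed 14.9 and 7.59 CPM against 28.9 and 0.333 CPM. The library labelled corn oil 1 thus held more of both transcripts than either TCPOBOP library, and it exceeded its partner by a median factor of 14.4 over the 48 genes above 0 in the latter. Without it, 41 of the 51 were called raised with TCPOBOP, against 5.71% of all genes, on a single control library whose spread is assumed to equal that of the TCPOBOP pair. Without the library labelled corn oil 2, 0 were raised and 8 lowered, against 1.64% of all genes lowered. Bub3 was flat across all 4 libraries, at 28.1, 25.8, 27.2 and 26.7 CPM. Pttg1 was at 15.6 and 19.4 CPM in the corn oil pair and 15.03 and 12.0 CPM with TCPOBOP.

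The size of the response was compared between experiments by testing one effect minus another. Mouse strain, age, feeding state and sampled tissue also vary between them, which cannot be told apart from the treatment, and all 3 tests share the PHx and sham libraries. The rise after PHx was larger than that in the knockout for 43 of the 51 genes and smaller for 0. Among all genes 16.0% had a larger effect after PHx. Esco2 had the largest difference that passed (8.04 ± 0.59), and Ect2 (1.85 ± 0.35), Cenpa (1.65 ± 0.22) and Bub3 (0.94 ± 0.18) the smallest that passed. The 8 that did not pass were Prc1 (2.98 ± 1.15, edgeR adjusted p 0.065) and 7 genes with too few counts to be tested in the knockout.

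Against cholic acid 41 of the 51 rises were larger after PHx, where 8.01% of all genes were, and against high fat diet 48 of 51, where 13.8% of all genes were. No gene of the 51 had a smaller rise after PHx in either test. Without flox chow 3 the first count was 24. The 10 genes that did not pass against cholic acid were Aunip, Bub1, Cenpf, Ect2, Espl1, Kif20a, Kif23, Kif2c, Nusap1 and Ube2c. The 3 that did not pass against high fat diet were Kif23, Kif4 and Ndc80.

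Across the 4 comparisons other than TCPOBOP, which share no control library, 3 of the 51 genes were raised in all 4: Aurka, Cenpe and Ect2. A further 12 were raised in 3, 20 in 2, and 16 after hepatectomy alone. Of the 15253 genes tested in any of these comparisons, 0.125% were raised in 4, 1.37% in 3, 8.06% in 2 and 26.2% in only 1. That last share counts any of the 4 comparisons, and the share raised after hepatectomy alone is not given. Without flox chow 3 the members' counts were 8, 15, 24 and 4. The shares of the 15266 genes tested in that setting were 0.275%, 1.86%, 8.52% and 26%, the last again in any 1 comparison. The 16 members raised after hepatectomy alone with all libraries include genes too low to be tested elsewhere. The difference of their effects is given above.

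Pttg1 and Bub3 stood out by their levels in control livers. Pttg1 had the highest CPM per kb of the 51 in 8 of the 10 groups, all but sham and PHx. In the 20 libraries of the other 4 experiments, all C57BL/6J, it ranged from 11.6 to 33.5 CPM, against 1.77 to 2.10 CPM in C3H/HeN sham livers. The PHx libraries, at 11.6 to 16.5 CPM, thus reached the low end of the C57BL/6J range. Pttg1 and Spc25 were the only 2 of the 51 whose 3 sham libraries all lay below those 20, as did 2.62% of all genes tested. Strain and experiment cannot be told apart here. Bub3 stayed between 18.9 and 28.1 CPM in all 23 libraries other than PHx.

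**Figure D5:**
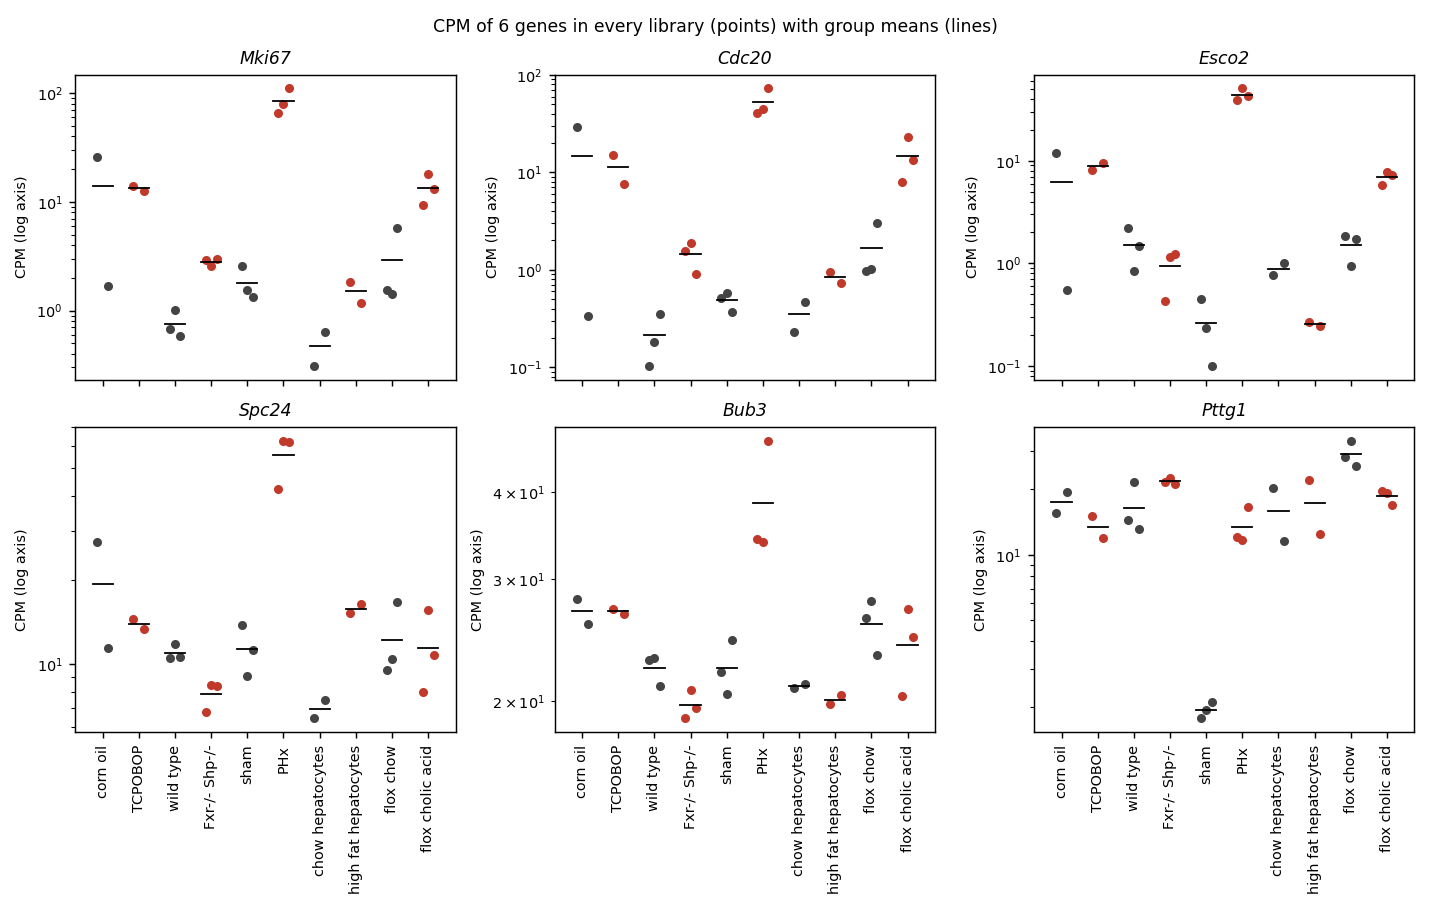
CPM (log axis) of Mki67, Cdc20, Esco2, Spc24, Bub3 and Pttg1 in every library (points; grey control and red treated groups) with group means (lines), n = 2 or 3 libraries per group. PHx is the highest group for all but Pttg1, whose sham libraries at 1.77 to 2.10 CPM lie below every other library, and the y axis of Bub3 spans only 18.9 to 47.5 CPM.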

How the data were processed

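RNA-seq counts per gene were deposited by the authors as 1 table of whole-number read counts for 26 mouse libraries. The submitters' processing notes name bcl2fastq 2.17.1.14, Trimmomatic, STAR 2.4.2a, Picard 1.119 and HTSeq, with builds GRCm38 and mm10. The annotation, the parameters and the strand setting are not given in the sources used here. Per the labels, libraries came from a stranded TruSeq kit. The 5 summary lines of the table, which held 23.0% to 48.6% of reads, were left out. Gene symbols came from a name table (47224 of 47643 IDs matched). Positions, exon lengths and overlaps came from GENCODE M21.

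Each comparison was fitted on its own libraries with edgeR 4.0.16 (limma 3.58.1, R 4.3.3): filterByExpr with a minimum count of 10 and total of 15, TMM, and the quasi-likelihood test. Adjusted p-values cover all genes tested. A difference between 2 effects was fitted as an interaction. CPM values use 1 TMM scale over all 26 libraries. SDs are not given for groups whose library values are printed. Alternatives were DESeq2 1.42.0, its size factors, 2 other filters, a single fit of all libraries, a replicate block and leaving out each library. Scripts were tested on simulated counts. Named genes are a fixed panel of 20, the 3 largest and 3 smallest changes of each comparison, genes called lowered, and the 3 largest called changes of each related list. The 51 genes and all lists were chosen with earlier results of these data known. Library totals of 13949059 to 70367874 counts set the precision of low genes.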

Additional observations from a re-analysis of the deposited data

How the results depend on the processing

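The number of the 51 genes called raised after hepatectomy was 51 under every alternative run. In the knockout, 24 became 5 when all 26 libraries shared a single fit, and 19 to 25 when 1 library was left out. On high fat diet, 11 became 1 in the single fit and ranged from 1 to 13 when 1 library was left out. On cholic acid, 18 became 39 with the DESeq2 Wald test, 36 with no low count filter and 40 in the single fit, and ranged from 2 to 43 when 1 library was left out. With TCPOBOP, the count of 0 ranged from 0 to 41 when 1 library was left out. The 43 rises larger after hepatectomy than in the knockout became 28 in the single fit. The 41 larger than on cholic acid ranged from 24 to 46 when 1 library was left out, and the 48 larger than on high fat diet from 38 to 48. The shares of all genes called are not printed for most of these settings. The counts thus do not show whether these genes or all calls moved. The cause of these shifts was not tested. In a comparison of 2 against 2, leaving 1 out assumes that the lone library varies like the other group.

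In comparisons other than TCPOBOP, a few log2 fold changes near 0 changed sign. On high fat diet Smc4 stood at 0.0109 in the single fit. With 1 library left out, Cenpa ranged from -0.15 to 0.19, Pttg1 from -0.37 to 0.55 and Kif11 from -0.33 to 0.23 in that comparison. On cholic acid Spc24 ranged from -0.37 to 0.20 and Bub3 from -0.19 to 0.0102 in the same way. The tally over named genes and alternatives leaves out the TCPOBOP comparison. In that tally 2371 values kept their direction and side of the threshold, 199 lost a call, 79 gained one and 10 changed sign.

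Replicate numbers are shared between groups, but same-numbered libraries did not deviate together in every pair. The correlation of deviations was 0.12 with TCPOBOP and 0.13 on high fat diet. Each is a single value, because with 2 libraries per group both pairs give the same number. The correlation was -0.20 to -0.0061 in the knockout, -0.07 to 0.11 after hepatectomy and 0.098 to 0.16 on cholic acid. On cholic acid each library matched its own number best. A fit with a replicate block called 51 genes raised after hepatectomy, 20 in the knockout, 16 on cholic acid, 11 on high fat diet and 0 with TCPOBOP. The 3 counts of larger rises were 40, 33 and 47, in the order knockout, cholic acid and high fat diet.

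Low counts left 14 of the 51 untested in the knockout, 1 on cholic acid and 9 in the high fat experiment, whose libraries were the deepest. A count of 0 in a library allows up to 3 counts.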
